A study of Mus musculus with 41 samples.

Results

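Ch25h, Abca1, Abcg1, Nr1h3, Apoe and Cd36 are 6 of the 27962 gene names on the mouse expression arrays of this series, and they were taken as every spot whose gene name equals one of them. All 6 names were found, on 7 probes, since Cd36 has 2 probes and the others have 1 each. The genes were chosen with values of these arrays known, so differences between exposed and control lungs are given for them as a description, with no test.

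The series asked how lung and liver RNA of female C57BL/6 mice (C57BL/6BomTac in the methods of the study) differed after inhalation of surface-coated nanosized titanium dioxide (nanoTiO2). Exposed mice breathed 40 mg nanoTiO2 per m3 by whole-body inhalation for 1 h per day on 11 days, control mice breathed filtered air on the same schedule, and both were killed 5 days after the last exposure. All had been time-mated but had not conceived. The labels give the age of the mRNA mice as a gestation-day equivalent and that of the miRNA mice as 11 to 13 weeks. The strain of 1 miRNA control is labelled C57BL/7. Messenger RNA was measured in 7 exposed and 6 control lungs and in 7 exposed and 8 control livers, and miRNA in 7 exposed and 6 control lungs, with 1 array per mouse and tissue. Most mice gave both a lung and a liver to the mRNA arrays. Each RNA came from a random piece of the left lung or of the liver, that is, from mixed cells, so fewer cells of a type and less RNA per cell cannot be told apart. On the mRNA arrays a level is the log2 ratio of the sample (Cy5) to a common mouse reference RNA (Cy3) hybridised to the same spots, so a level has meaning for 1 probe at a time and the order of levels between genes has none.

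Of the spots on each mRNA array, 55.1 to 70.5% were well above background in Cy5, and 2.46 to 4.72% were marked as outliers by the scanner software and left out. The lung epithelium marker list averaged 3.80 to 4.67 in the 13 lungs and -0.07 to 0.24 in the 15 livers, while the hepatocyte list averaged 5.24 to 6.23 in the livers, so each array carried the markers of its labelled tissue. On every mRNA slide, exposed samples lay at the first 2 array positions and controls at the last 2, so exposure and position cannot be told apart. In the lung, 83 of 41155 probes (0.202%) passed an adjusted p of 0.05 between exposed and control mice (limma, Benjamini-Hochberg over all probes), 74 higher (0.180%) and 9 lower (0.0219%). In the liver 0 of 41143 passed (0%), with 1040 (2.53%) at an unadjusted p under 0.05.

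Cholesterol 25-hydroxylase, encoded by Ch25h, adds a hydroxyl group to cholesterol in the endoplasmic reticulum and makes 25-hydroxycholesterol, an oxysterol that macrophages release during interferon and Toll-like receptor responses. Oxysterols bind the liver X receptors, of which Nr1h3 encodes LXR alpha, and these nuclear receptors raise transcription of Abca1, Abcg1 and Apoe, while 25-hydroxycholesterol also holds the SREBP factors of cholesterol synthesis inactive through the Insig proteins. ABCA1 passes cholesterol and phospholipid to lipid-poor apolipoproteins, ABCG1 passes cholesterol to HDL particles, and both let lung macrophages shed the lipid they take up with surfactant. CD36 is a scavenger receptor and fatty acid transporter that brings oxidised lipoproteins and fatty acids into macrophages, endothelium and adipocytes.

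Probes of 5 members are given first, because the identity of a gene on an array rests on its probe. For each, the first 30 bases from the deposited design are shown, with the place of the whole probe in mouse build mm7 as the files list it. The match of the first Cd36 probe spans a longer stretch of the genome than the probe itself.
Ch25h, chr19:34175232-34175291, minus strand: ctatgtatgaaatcgcactggaactgggct
Abca1, chr4:53044891-53044950, minus strand: gttgcatccctttttgtagaacatttatat
Nr1h3, chr2:91034994-91035053, minus strand: gactgtttcaccgtgtcctttgtgttggcc
Apoe, chr7:17378757-17378816, minus strand: aagatacaggcctctgtggctaccaacccc
Cd36, first probe, chr5:16796811-16799243, minus strand: taagtagtggatgagcctacatatacactg
Cd36, second probe, chr5:16796301-16796360, minus strand: aagaatgaaaaatgaacaattcacatgtga

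RefSeq promoter windows (build GRCm38.p6, 250 bases before to 50 after a start site) were at hand for 5 of the 6 genes, in 8 windows, and Abcg1 was not among them. The windows were searched on both strands for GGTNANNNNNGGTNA, a loose form of the direct repeat with a 4-base spacer that LXR and RXR pairs bind, which 236 of 32851 windows held (0.718%). Among the member genes it was found in the Abca1 window alone, as its reverse complement at bases -67 to -53 from the start site. The 100 bases at chr4:53159905-53160004 (minus strand, positions -109 to -10) are shown with that match in capitals, because the RNA of this gene is among the values that follow. A match in letters is a description and was not tested for binding.
Abca1 upstream stretch: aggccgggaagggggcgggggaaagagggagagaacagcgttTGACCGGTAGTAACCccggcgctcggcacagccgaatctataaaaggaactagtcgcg

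Ch25h, the enzyme at the head of the pathway, had the widest separation among the members in the lung. Across the 7 exposed lungs its log2 ratio to the reference was 2.67 at the lowest (mouse 23), 2.85 at the median and 3.56 at the highest (mouse 20). Across the 6 control lungs it was 1.20 at the lowest (mouse 29), 1.83 at the median and 2.43 at the highest (mouse 32). All 7 exposed lungs lay above every control, a gap between groups that 0.274% of the 31796 probes measured on all 13 arrays had in the same direction. The means were 2.93 ± 0.29 (SD, n = 7) and 1.83 ± 0.41 (SD, n = 6), a difference of 1.10 on the log2 scale or 2.14-fold. Each of the 3 slides that held both groups gave a higher exposed mean, by 0.97, 1.44 and 0.67. The second of these slides held 1 exposed lung and 2 controls. Fitting the background model on every spot, marked ones included, lowered the difference to 0.58. In that fit the Cy5 background mean was -120, -200 and -609 in exposed lungs 1, 12 and 23. It was -18.7 to -4.45 in the control lungs. Without the marked spots those exposed lungs had -4.33, -4.21 and -4.88. The part of these background means in the lower difference was not tested.

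**Figure D1:**
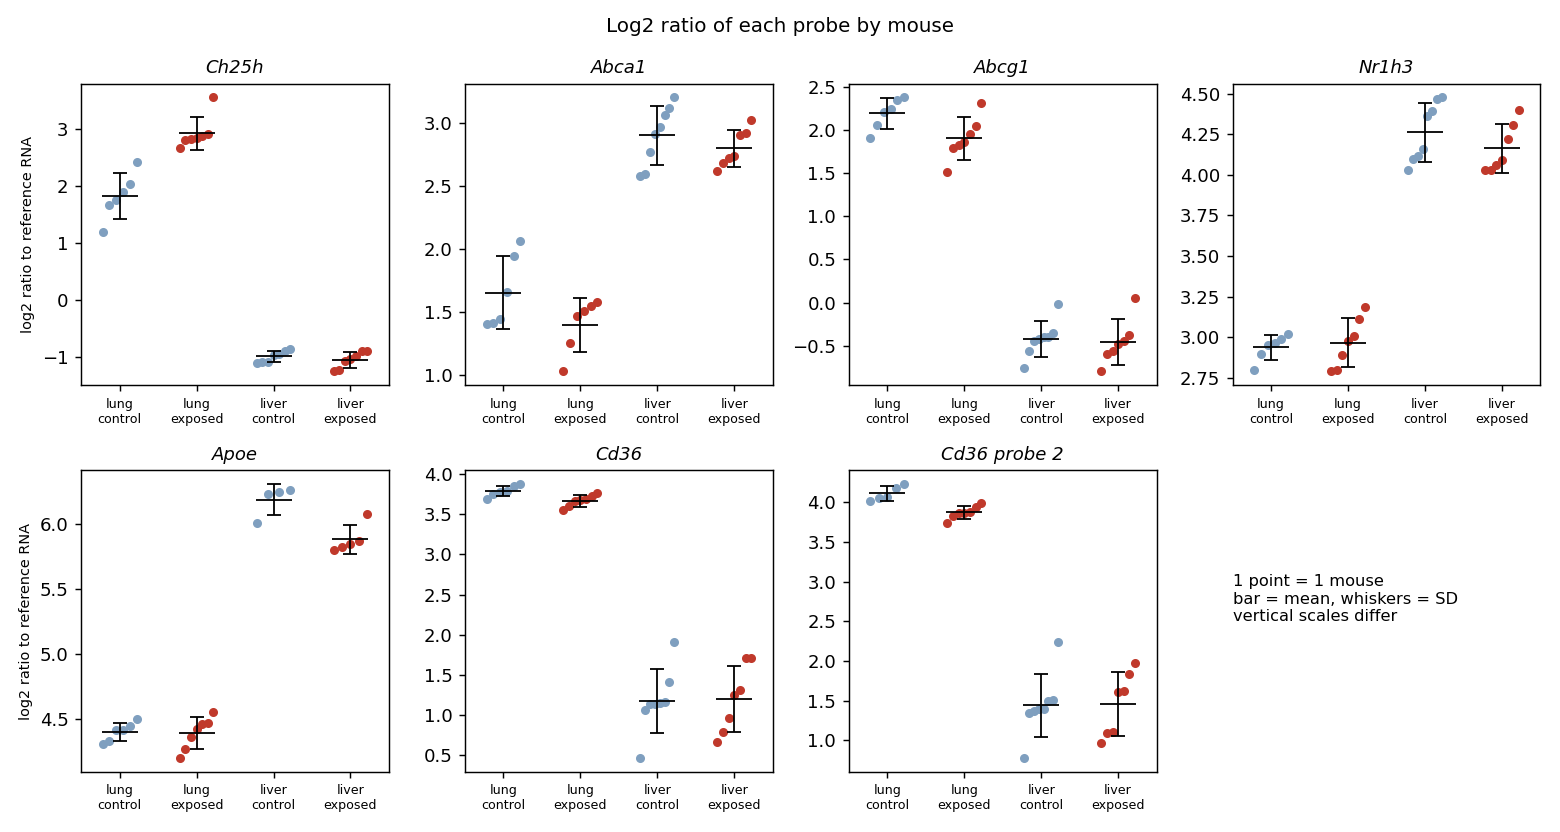
Log2 ratio to the reference RNA (vertical axis) of each member probe in exposed and control lungs and livers, one point per mouse with the group mean and SD. For Ch25h the 7 exposed lungs sit between 2.67 and 3.56, above the 6 control lungs at 1.20 to 2.43, and both liver groups lie near -1.

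The receptor gene Nr1h3 had nearly equal values in both lung groups. Its log2 ratio ran from 2.79 to 3.18 with a median of 2.98 in exposed lungs and from 2.80 to 3.02 with a median of 2.96 in controls. The means were 2.97 ± 0.15 (SD, n = 7) and 2.94 ± 0.08 (SD, n = 6), and the groups overlapped. Apoe, whose product carries lipid in plasma and is also secreted by macrophages, averaged 4.39 ± 0.12 (SD, n = 7) across exposed lungs and 4.40 ± 0.07 (SD, n = 6) across control lungs, with values of 4.20 to 4.55 and 4.31 to 4.50.

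The transporter genes had lower means in exposed lungs, each with overlapping groups. Abca1 ran from 1.03 to 1.58 with a median of 1.49 in the 6 exposed lungs with an unmarked spot, and from 1.40 to 2.06 with a median of 1.55 in the 6 controls. Its means were 1.40 ± 0.21 (SD, n = 6) and 1.65 ± 0.29 (SD, n = 6), a difference of -0.26, with 2 exposed lungs below every control. Abcg1 ran from 1.52 to 2.31 with a median of 1.85 in exposed lungs and from 1.91 to 2.37 with a median of 2.23 in controls. Here 4 of 7 exposed lungs were below every control, and the highest exposed lung (mouse 20, also the highest for Ch25h) was above 4 of the 6 controls. Its means were 1.90 ± 0.25 (SD, n = 7) and 2.19 ± 0.18 (SD, n = 6), a difference of -0.29, and the 3 slides gave -0.33, -0.31 and -0.29. For Abca1 the slides gave 0.06, -0.43 and -0.41, so its sign was not the same on all of them. The values 0.06 and -0.43 each rest on 1 exposed lung. With the background model fitted on all spots the differences were -0.59 for Abca1 and -0.49 for Abcg1, and with each array centred on its median they were -0.10 and -0.19.

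Cd36, the uptake receptor, was slightly lower in exposed lungs on both probes. On the first probe the log2 ratio was 3.55 to 3.77 with a median of 3.68 in exposed lungs and 3.70 to 3.88 with a median of 3.79 in controls, with 5 of 7 exposed lungs below every control. The means were 3.67 ± 0.07 (SD, n = 7) and 3.79 ± 0.07 (SD, n = 6), a difference of -0.12. On the second probe exposed lungs ran from 3.74 to 3.99 and the 5 controls with an unmarked spot from 4.02 to 4.23, with a difference of -0.24. All 7 exposed lungs lay below those 5 controls (among probes measured on all 13 arrays, 0.116% had such a gap in this direction). The marked spot of the control mouse 24 read 3.95 without background correction, which would place it among the exposed values. The size of the Cd36 difference depended on the processing, at -0.30 and -0.63 on the first and second probe with the background model on all spots and at -0.019 and -0.11 with median centring.

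In the liver, measured in an overlapping set of mice and not used to choose the genes, 0 of the 6 members passed the test between exposed and control mice (limma, every adjusted p 1.00, with 0% of all probes passing), and 1 of them, Apoe, was at an unadjusted p under 0.05. Ch25h was near the limit of detection there, well above background in 3 of 7 exposed and 2 of 8 control livers. Its log2 ratio was -1.24 to -0.89 with a median of -1.03 in exposed livers and -1.10 to -0.85 with a median of -0.96 in the 7 controls with an unmarked spot. The difference was -0.06, with a 95% confidence interval of -0.20 to 0.08. A change in liver of the size of the lung difference lies outside that interval, although a signal so close to background may understate a change.

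Exposed and control livers overlapped for all 6 members, where 0.0167% of the 29967 probes measured on every liver array had a gap upwards and 0.00667% one downwards. Abca1 averaged 2.80 ± 0.15 (SD, n = 7) across exposed livers and 2.90 ± 0.23 (SD, n = 8) across control livers, a difference of -0.10 (95% confidence interval -0.31 to 0.10). Abcg1 was -0.46 ± 0.26 (SD, n = 7) and -0.42 ± 0.21 (SD, n = 8), a difference of -0.04 (-0.28 to 0.20). Nr1h3 was 4.16 ± 0.15 (SD, n = 7) and 4.26 ± 0.18 (SD, n = 8), a difference of -0.10 (-0.28 to 0.07). The interval of Abca1 includes the size of its lung difference, and that of Abcg1 ends just short of it. Cd36 varied most from liver to liver, from 0.67 to 1.71 in exposed and from 0.46 to 1.91 in control mice on its first probe, and its difference was 0.02 (-0.39 to 0.43). The second probe gave 0.02 (-0.38 to 0.42).

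Apoe was the member with the lowest p in liver, and it was also the one with the poorest spots. The software marked 70 to 100% of its 10 spots on every liver array, and all 10 on 2 exposed and 4 control arrays, which left 5 exposed and 4 control values. The exposed values were 5.80 to 6.08 with a median of 5.85, and the control values 6.01 to 6.26 with a median of 6.24. In 4 of 5 exposed livers Apoe was below every control. The difference was -0.30 (95% confidence interval -0.49 to -0.12), with an exact two-sided permutation p of 0.0238 for this probe alone, while the limma p adjusted over all probes was 1.00. With marked spots kept, all 7 exposed and 8 control arrays gave 5.81 ± 0.13 and 6.06 ± 0.16 (SD), a difference of -0.25 with an adjusted p of 1.00. The 2 slides with unmarked spots of both groups gave -0.42, from 1 exposed and 1 control array, and -0.15, from 2 of each. In the same livers all 8 measured hepatocyte markers were lower in exposed mice, with 0 passing, 5 at an unadjusted p under 0.05 and a median difference of -0.24, and the part of this in the Apoe value was not tested.

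**Figure D2:**
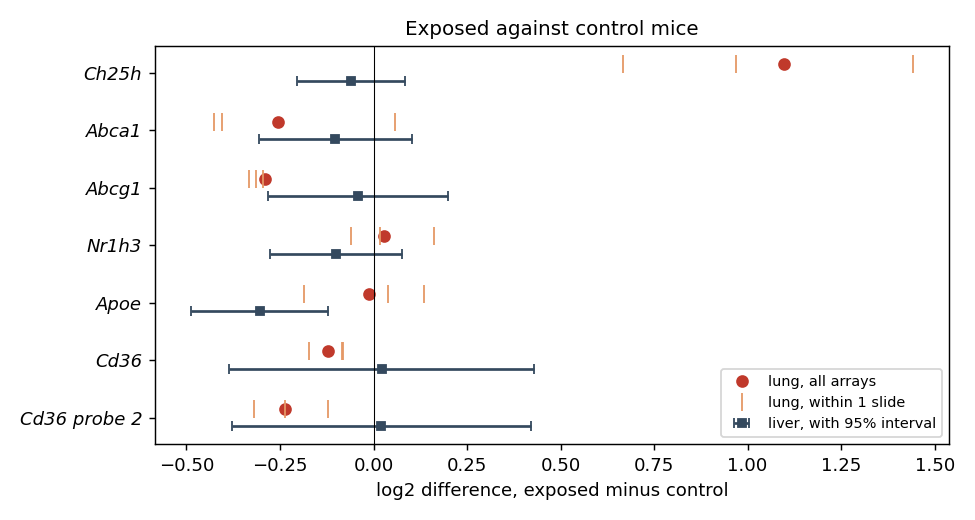
Difference in mean log2 ratio (horizontal axis) for each member probe between exposed and control mice in lung (circles, with ticks for the 3 slides that held both groups) and in liver (squares, with 95% confidence intervals). The lung value of Ch25h over all arrays (1.10) stands to the right of those of all other members, and in liver the interval of Apoe (-0.49 to -0.12) is the one that does not reach 0.

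The members also differed between the tissues of control mice. All 6 members passed the test between lung and liver (limma), where 57.8% of 41149 probes also passed, 29.3% higher and 28.5% lower in lung. Lung and liver were run on separate slides and with different scanner software versions, so tissue and run cannot be told apart, and the control lungs also stood in the contrast known when the genes were chosen. Ch25h, Abcg1 and Cd36 were higher in lung. The Ch25h value is the least certain, because its probe was well above background in 2 of 8 control livers, and other settings gave 2.45 to 4.98. Ch25h was higher by 2.81 on the log2 scale (7.03-fold, adjusted p = 3.50e-11), Abcg1 by 2.61 (6.08-fold, adjusted p = 2.48e-13) and Cd36 by 2.62 (6.14-fold, adjusted p = 6.71e-11) on its first and 2.67 on its second probe.

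Abca1, Nr1h3 and Apoe were higher in liver, where HDL is formed and most plasma apolipoprotein E is made. Abca1 differed by -1.25 (2.37-fold higher in liver, adjusted p = 1.35e-07, limma), Nr1h3 by -1.32 (2.50-fold, adjusted p = 7.57e-11) and Apoe by -1.79 (3.45-fold, adjusted p = 3.51e-11). No control lung overlapped a control liver for any of the 6 genes, a gap that 21.2% of probes measured on all arrays had upwards and 18.6% downwards. The transporter genes lay on opposite sides, Abcg1 higher in lung and Abca1 higher in liver. Within single mice, Ch25h in lung exceeded that in liver by 3.71 to 4.62 in the 6 exposed mice with both tissues measured and by 2.06 to 3.36 in 5 controls, against liver signals of which most were not well above background.

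The other genes of sterol handling were followed as a list of 75, all of them measured. In exposed lungs 48 had a higher and 27 a lower mean, against 50.9% of all probes higher, and 3 passed the test, all higher (limma over all probes, where 0.180% of probes passed as higher). The list was drawn up with lung results of these arrays known, so its counts are not independent evidence of a direction. In all, 10 of the 75 were at an unadjusted p under 0.05, against 7.13% of all probes. The median difference of the list was 0.05 and that of all probes 0.00147. All 3 that passed take lipid or particles into cells, and none belongs to the listed LXR targets or efflux genes. Abca1, Abcg1 and Apoe, which are members, were not tested in lung.

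Marco, a scavenger receptor of alveolar macrophages that binds inhaled particles, rose by 0.57 (adjusted p = 0.00924, limma) from 4.61 to 5.20 in controls to 5.27 to 5.60 in exposed lungs. Msr1, the class A scavenger receptor of macrophages, rose by 0.52 (adjusted p = 0.0200, limma) from -1.67 to -1.38 in controls to -1.16 to -0.61 in exposed lungs. For both genes all 7 exposed lungs lay above every control. Cd36, a scavenger receptor of another class, differed by -0.12 on its first and -0.24 on its second probe.

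The calls for Marco and Msr1 did not hold under every processing. With the scanner software's own processed signals Marco had an adjusted p of 0.347, and with the authors' normalized table Msr1 had one of 0.0553 (limma). Without background correction Msr1 just missed the threshold, at an adjusted p of 0.05003 (limma). Centring each array on its median in place of loess left 0 of the 75 genes past the threshold, and fitting the background model on all spots left 1.

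**Figure D3:**
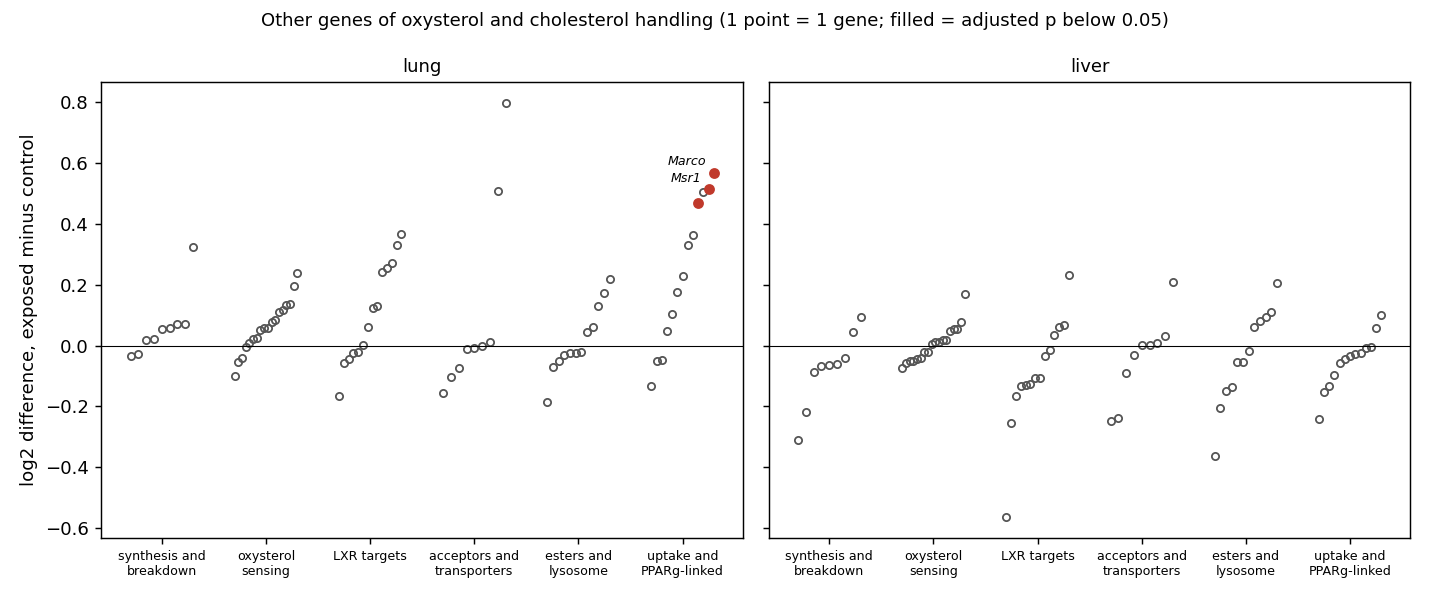
Log2 difference between exposed and control mice (vertical axis) for each of the 75 listed genes, grouped by role along the horizontal axis, in lung (left) and liver (right), with the 3 that passed the test filled. Marco (0.57) and Msr1 (0.52), which are labelled, belong to the uptake receptors, and the LXR targets lie between -0.17 and 0.37 in lung.

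By role, the median difference in exposed lungs was 0.23 for the uptake genes and -0.02 to 0.09 for the other roles. Of 9 genes that make or break down oxysterols 7 had a higher mean in exposed lungs and 0 passed, from Cyp7b1, which hydroxylates 25-hydroxycholesterol towards bile acids, at 0.32 (adjusted p = 0.608, limma) to Cyp46a1 at -0.04. Of 18 genes that sense oxysterols (nuclear receptors, oxysterol-binding proteins and Insigs) 14 were higher and 0 passed, from Rxrg at 0.24 to Osbpl9 at -0.10. Of 14 further LXR targets 9 were higher and 0 passed, from Apoc4 at 0.37 (adjusted p = 0.756, limma) to Apoc2 at -0.17. Each of these groups had a median difference of at most 0.09, and at an unadjusted p under 0.05 they held 1, 0 and 0 genes.

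Of 9 genes for cholesterol acceptors and HDL handling 3 were higher and 0 passed, from Apoa2, an HDL apolipoprotein made by hepatocytes, at 0.80 (adjusted p = 0.704, limma) to Cav1 at -0.16. Of 12 genes for cholesterol esters and lysosomal export 5 were higher and 0 passed, from Lipe at 0.22 to Nceh1, listed in the files under its older symbol Aadacl1, at -0.19. At an unadjusted p under 0.05 these groups held 0 and 2 genes. Of 13 genes for lipid uptake 10 were higher, with 3 passing, Marco and Msr1 among them, 7 at an unadjusted p under 0.05, and Olr1 lowest at -0.13. In liver 28 of the 75 had a higher and 47 a lower mean, against 47.2% of all probes higher. There 0 passed, and 5 were at an unadjusted p under 0.05, against 2.53% of all probes. The liver extremes of each role were Cyp39a1 (0.09) and Cyp8b1 (-0.31), Osbpl8 (0.17) and Insig2 (-0.07), Abcg8 (0.23) and Apoc1 (-0.56, 1 unmarked array in each group), Apoa4 (0.21) and Apoa2 (-0.25), Nceh1 (0.21) and Plin2 (-0.36, 1 against 2 arrays), and, as the lowest of the uptake genes, Marco (-0.24). Between control lung and liver, where tissue and run cannot be told apart, 24 of the list passed as higher in lung and 43 as lower. Over all probes 29.3% passed as higher in lung and 28.5% as lower.

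Some markers of other cell types varied widely among the lung pieces, with overlapping mean levels, as the plot of marker levels shows. All 9 measured hepatocyte markers had a higher mean in exposed lungs, with 0 passing, 5 at an unadjusted p under 0.05 and a median difference of 0.87. Their mean level was 0.65 to 2.73 in exposed lungs (highest in mouse 1) and 0.34 to 1.16 in controls, while Ttr was well above background on 1 and Fga on 2 of 13 arrays. All 10 heart muscle and all 8 adipocyte markers also had higher means, with 0 passing and 0 and 1 at an unadjusted p under 0.05, and their mean levels were 1.82 to 3.11 against 0.87 to 3.20 and at 1.80 to 3.84 against 1.35 to 3.14. The part of these in the member values was not tested.

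Macrophages are the cells best known for Ch25h, Marco and Msr1, and their markers did not move as one. Of 12 macrophage markers 7 had a higher and 5 a lower mean in exposed lungs, and their mean level was 1.92 to 2.27 in exposed and 2.05 to 2.35 in control lungs. Beside Marco and Msr1, which passed as higher, Siglecf, a lectin of alveolar macrophages and eosinophils, fell by 0.70 (adjusted p = 0.0106, limma) and Ear1, a ribonuclease of the same cells, fell by 0.48 (adjusted p = 0.000603, limma). Near-identical Ear genes may share that probe. Of 12 neutrophil markers 3 were higher and 9 lower, of 12 endothelial markers 3 and 9, of 8 lymphocyte markers 3 and 5, and of 7 lung epithelium markers 2 and 5, of which 1 passed, Foxj1 of ciliated cells at 0.29 (adjusted p = 0.0370, limma). In lavage fluid of these mice, a different sample from the lung pieces, the study reported more neutrophils and lymphocytes and fewer macrophages after exposure. The part of macrophage makeup in the Ch25h value was not tested.

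**Figure D4:**
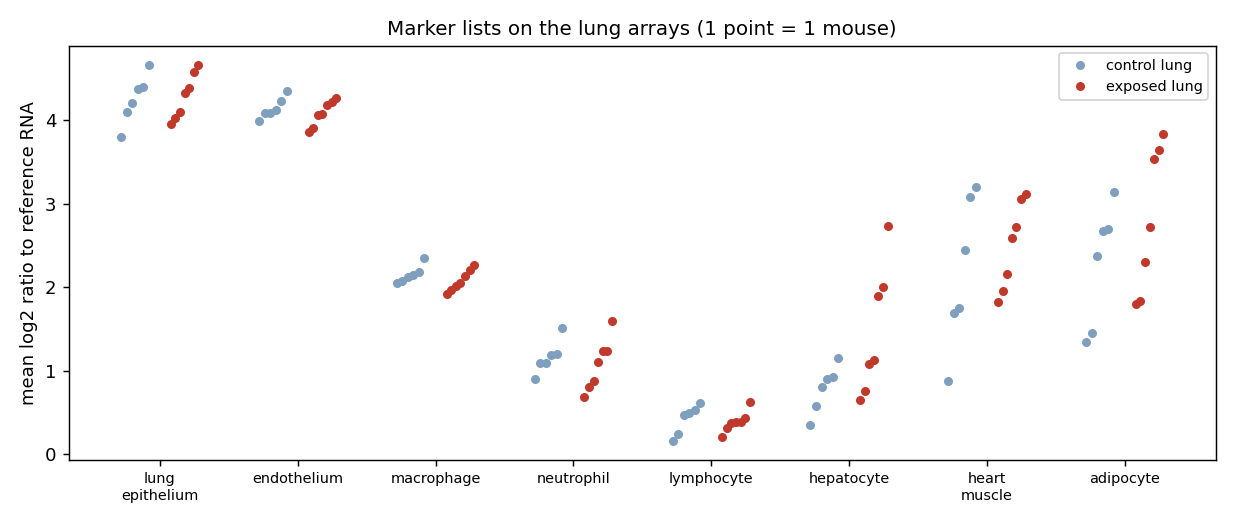
Mean log2 ratio to the reference RNA (vertical axis) of 8 marker lists (horizontal axis) in each exposed and control lung, one point per mouse. The hepatocyte list reaches 2.73 in exposed lungs and 1.16 in controls, whereas the macrophage list spans 1.92 to 2.27 and 2.05 to 2.35.

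The genes whose lung pattern was most like that of each member were found over the 13 lung arrays among 17786 probes well above background on all of them, and the coefficients are descriptions over arrays that share the exposure. For Ch25h these were D17H6S56E-5 and Ctsk, a lysosomal protease, (Pearson's r = 0.93 each) and Saa1, an acute-phase protein (0.92). Their coefficients after removing the group means were 0.69, 0.67 and 0.69. For Abca1, over 12 arrays, they were Gnaq, BC039210 and Atp7a (0.93 each), with 0.91, 0.90 and 0.91 after removing the group means. For Abcg1 they were 1700021J08Rik (0.91), Fbxl7 (0.89) and Ppp2r5e (0.86). The likeness of Ch25h to its neighbours thus rested in part on the group difference, whereas that of Abca1 was nearly as high within groups.

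For Nr1h3 the nearest genes were Lims2 (0.91), 2010316F05Rik (0.89) and Tagln2 (0.89), for Apoe Serping1 (0.85), ENSMUST00000024228 (0.83) and Pcolce2 (0.81), and for Cd36 Tnp1 (0.83), Slc12a8 (0.78) and Gsta1 (0.78). Among the members themselves, Abca1 and Abcg1 varied together from lung to lung (0.72, and 0.61 within groups). Ch25h ran opposite to Cd36 (-0.67) and to Abca1 (-0.53), with -0.22 and -0.26 within groups. With Abcg1 it had -0.49, but 0.02 within groups. With Apoe it had -0.34, and -0.57 within groups, and with Nr1h3 0.17 and 0.12. Abcg1 and Cd36 had -0.0087, and -0.69 within groups.

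Lung miRNAs were measured on arrays of their own, and 15 of them were listed from general knowledge as acting on Abca1. Of these, 13 passed the filter on detection and 0 of 13 passed the test between exposed and control lungs (limma), where 5 of 217 miRNAs did (2.30%). In the list 4 were higher and 9 lower, 3 had an unadjusted p under 0.05 (34 of the 217 did), the lowest adjusted p was 0.151, and the median difference was -0.03, as over all 217. The 2 best known in this role are shown with their seeds (bases 2 to 8) in capitals, from RefSeq on build GRCm38.p6. The array names give no arm, so the arm printed is the one usually meant by the name, and the 2 seeds differ.
mmu-miR-33-5p, chr15:82198127-82198147, plus strand: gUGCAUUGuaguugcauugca
mmu-miR-144-3p, chr11:78073047-78073066, plus strand: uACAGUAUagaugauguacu

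The normalized log2 signal of mmu-miR-33, which lies in an intron of Srebf2, was 6.41 to 6.80 in exposed and 5.94 to 6.50 in control lungs. Its means were 6.62 ± 0.16 (SD, n = 7) and 6.36 ± 0.21 (SD, n = 6), a difference of 0.26 (adjusted p = 0.237, limma), and the groups overlapped. For mmu-miR-144, an erythroid miRNA, the signal was 9.95 to 11.0 in exposed and 9.07 to 10.2 in control lungs. The difference was 0.60 with an adjusted p of 0.151 (limma). Within the 2 hybridization blocks the difference was 0.60 and 0.66 for mmu-miR-144 and 0.28 and 0.27 for mmu-miR-33. With the block in the fit mmu-miR-144 passed, at 0.62 (adjusted p = 0.0361, limma), and mmu-miR-33 did not (adjusted p = 0.0775). The study, with a different fit of its miRNA arrays, reported both miRNAs as higher in exposed lungs after FDR adjustment. The miRNA and mRNA mice are numbered differently, so no miRNA value could be set against Abca1 in the same mouse.

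**Figure D5:**
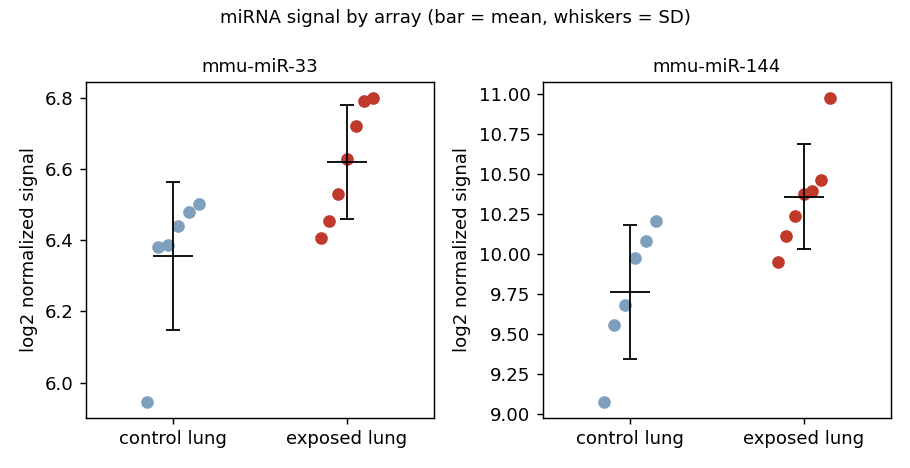
Normalized log2 signal (vertical axis) of mmu-miR-33 and mmu-miR-144 in each exposed and control lung, one point per mouse with mean and SD. The exposed means lie higher by 0.26 and 0.60, and the groups overlap for both.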

How the data were processed

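The mRNA files are scanner output of 2-colour arrays (Agilent 4x44K), with sample in Cy5, reference RNA in Cy3 and no dye swap, deposited by the authors as spot intensity values, not normalized. The authors also deposited a table of normalized log2 ratios, used here as an alternative. It tracked the log ratios without background correction (r = 0.994 to 0.998 across probes). The miRNA files hold 1-colour intensity values, deposited by the authors in the same way. One miRNA control is labelled Cy5, although its file holds the green channel. No authors' comparison columns were used.

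Intensities were background corrected (normexp, offset 50, fitted without the spots that the scanner software had marked), loess normalized within each array and averaged per probe, with control spots left out. Tests used limma 3.58.1 in R 4.3.3 on log2 ratios within each tissue or between control tissues, Benjamini-Hochberg adjustment over all probes and a threshold of 0.05. The fits that compare groups, for mRNA and for miRNA, were tested on values simulated as already normalized. The steps before the fits were not tested in this way. MiRNA signals were not background subtracted. They were quantile normalized, taken as the median per probe and then per miRNA, and kept if they exceeded, on a share of 0.5 or more of the arrays of either group, a limit set 3 trimmed SDs over the trimmed mean of the (-)3xSLv1 negative controls. A trim of 0.05 at each end was set here. Gene names are those of the array design. The values of 1 listed gene and the sequence of 1 probe are not reported here.

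The members and lists were chosen with earlier results of these data known. Named genes are all members on every probe, listed genes that passed, the highest and lowest of each role, 3 most alike genes per member, and mmu-miR-33, mmu-miR-144 and any listed miRNA that passed; of several probes the brightest was used. Siglecf, Ear1 and Foxj1 were named as the marker genes that passed. Same-numbered lungs and livers came from the same mouse, which pairs the control tissues, and their deviations from the group means correlated at -0.04 to 0.19 over 10981 probes in the 6 mice. Alternatives were other background corrections, normalizations, filters, slide blocks and leaving out each array. Keeping marked spots without background correction was added after seeing the data, because Apoe lost 6 of 15 liver arrays.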

Additional observations from a re-analysis of the deposited data

Results flagged for a closer look

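Of 44 sets of values looked at, 5 held a sample far from the rest of its group, and chance alone marks about 1 in 20. In Ch25h, exposed mouse 20 had the highest lung value at 3.56, with the next at 2.91. In Apoe, control mouse 37 had the lowest liver value at 6.01, with the next at 6.23 among 4 arrays. In the exposed livers mouse 23 had the highest Apoe value at 6.08, with the next at 5.87 among 5 arrays. In mmu-miR-33, control mouse 12 had the lowest signal at 5.94, with the next at 6.38. In Marco, 1 exposed liver stood highest at 5.47, with the next at 4.28.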

How the results depend on the processing

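Ch25h in lung kept its direction throughout, with a difference of 0.97 to 1.22 when each array was left out and 0.58 to 1.16 under the other settings, 0.58 with the background model fitted on all spots. That setting also left 1 member with a higher mean in exposed lungs in place of 2 (Nr1h3 at -0.35 in place of 0.03), and 1 listed gene passing in place of 3. It is the setting with far lower Cy5 background means in exposed lungs 1, 12 and 23 than in the control lungs. Median centring left 0 listed genes passing. Leaving out each lung in turn, 1 to 3 members had a higher mean in exposed lungs (1 without exposed mouse 7, 3 without exposed mouse 12), and 2 to 4 listed genes passed. Over all probes in lung, 12 passed with the background model on all spots, 4 with median centring and 133 with slide as a random block, against 83.

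In liver, 0 of 167 member values under the alternatives passed and 16 took the other sign. With the background model on all spots Abca1 was 0.34 and Nr1h3 0.29. In that fit the Cy5 background mean was -972, -696 and -68.7 in control livers 24, 26 and 27. It was -13.5 to -7.86 in the exposed livers. With median centring Abca1 was 0.042, Abcg1 0.083 and Nr1h3 0.070. With slide as a fixed block the second Cd36 probe was -0.0022. Leaving out each liver, Abcg1 ranged from -0.13 to 0.017, Cd36 from -0.081 to 0.13 and its second probe from -0.074 to 0.14. The setting restricted to probes well above background gave no liver value for Ch25h.

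Between control tissues 153 of 154 member values kept direction and call. Abca1 with the background model on all spots did not pass, at -0.84 (adjusted p = 0.0641, limma). With mouse number as a block for the paired control tissues 6 of 6 members passed, and no call of a member changed.

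With the hybridization block 1 of the listed miRNAs passed in place of 0, and over all miRNAs 14 passed in place of 5. Over all miRNAs 1 passed after scaling to the 75th percentile, 2 when every mouse miRNA was tested, and 2 to 7 when each array was left out. For changes with a setting, the cause was not tested. The number of arrays and, for Ch25h in liver, signal close to background limit the precision. Values with slide as a random block are not given for the lung members, for which no test is given.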
